A study of Mus musculus with 12 samples.

Results

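Interferon-stimulated genes are genes whose transcription rises when a cell senses interferon, and 41 of them were followed here across 4 stromal cell populations sorted from mouse bone marrow. The members were a fixed list of symbols, matched to Ensembl gene identifiers, and made up 41 of the 49585 genes in the deposited tables and 41 of the 18648 genes with enough counts to test. They comprised 7 genes of interferon signalling and transcription, 3 of the ISG15 system, 4 sensors of foreign nucleic acid, 5 of the OAS family, 4 of the IFIT family, 10 other antiviral effectors, 5 interferon-induced GTPases and 3 genes of antigen processing. The list was chosen with earlier results of these data known, although its rule uses no measured value. All 41 passed the expression filter of at least 0.5 CPM in 1 or more libraries, where CPM is the count of a gene per megaread of its library. The filter used library totals, while all other CPM here were scaled for composition by TMM. By scaled CPM, 30 members reached 0.5 in all 12 libraries. Oas2 reached it in Sca-1+ MSCs alone, and Mx1 in only 2 libraries, of Itga8+ and Sca-1+ MSCs.

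RNA was sequenced from 2000 sorted cells per sample, with 3 samples for each of 4 populations of wild-type C57BL/6 males aged 8 to 10 weeks at steady state, and no sample was described as treated with interferon or infected. The populations were Itga8+ MSCs (Itga8+Alcam+Sca-1- mesenchymal stromal cells of the bone lining), Itga8-Alcam+ BLCs (the Itga8- part of the same Alcam+ bone-lining gate, described as osteoblasts), Sca-1+ MSCs (Alcam-Sca-1+) and CD51+CD140a+ MSCs (perivascular stromal cells). CD51+CD140a+ MSCs came from marrow that was flushed out and dissociated with Accumax, whereas the other 3 populations came from bone fragments digested with collagenase after flushing, so the population and its isolation cannot be told apart. The labels do not say whether the 3 samples of a population came from separate mice, so the p-values measure only the spread between these samples. The populations are defined by surface gates alone. In such bulk samples, fewer cells of a type that use a gene and less of its RNA per cell cannot be told apart.

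By way of background, type I interferons bind the receptor chains Ifnar1 and Ifnar2, which activates a complex of Stat2 and Irf9 that binds the interferon-stimulated response element, a repeat of GAAA letters in the promoters of antiviral genes. Interferon gamma uses the receptor chains Ifngr1 and Ifngr2 and a different, palindromic element, and it acts strongly on the guanylate-binding GTPases and on antigen presentation through Irf1. Many of these genes also have a low resting level in stromal and stem cells without infection.

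Promoters of 6 members are shown because they place the response element, as letters only, in 5 members from 4 of these classes and because the window of Oasl2, the member with the largest difference between CD51+CD140a+ MSCs and Itga8- BLCs, holds no such match. Each line gives the 125 bases that end 21 bases before the start of the RefSeq transcript, 5′ to 3′ on the strand of the gene, in build GRCm38.p6. The window lies outside annotated exons, and capitals mark letters that match a pair of GAAA words with any 2 bases between them, on either strand (TTTC on the other), overlapping matches included.
Ifit1, chr19:34640744-34640868 (plus strand): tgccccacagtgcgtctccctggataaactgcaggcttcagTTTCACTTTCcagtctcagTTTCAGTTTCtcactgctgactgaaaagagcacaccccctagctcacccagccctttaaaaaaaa
Isg15, chr4:156200839-156200963 (minus strand): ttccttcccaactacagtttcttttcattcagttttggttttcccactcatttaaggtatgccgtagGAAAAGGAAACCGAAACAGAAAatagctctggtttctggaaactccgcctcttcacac
Bst2, chr8:71537493-71537617 (minus strand): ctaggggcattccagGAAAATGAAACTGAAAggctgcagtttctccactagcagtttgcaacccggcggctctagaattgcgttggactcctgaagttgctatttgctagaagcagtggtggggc
Gbp7, chr3:142530191-142530315 (plus strand): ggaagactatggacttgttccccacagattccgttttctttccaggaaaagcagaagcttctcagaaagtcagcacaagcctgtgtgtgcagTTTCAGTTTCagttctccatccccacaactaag
Igtp, chr11:58199411-58199535 (plus strand): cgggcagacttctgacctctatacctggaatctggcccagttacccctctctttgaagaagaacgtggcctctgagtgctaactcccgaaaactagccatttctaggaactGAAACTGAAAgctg
Oasl2, chr5:114896789-114896913 (plus strand): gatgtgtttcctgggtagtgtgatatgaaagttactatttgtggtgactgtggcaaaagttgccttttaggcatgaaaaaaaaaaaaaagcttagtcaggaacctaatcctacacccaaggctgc

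In the 250 bases before the start, this GAAA pair was found on either strand in 14 of the 32 members with a promoter in the RefSeq table (43.8%), against 936 of all 27025 promoters in it (3.46%). It was found in all 5 interferon-induced GTPases, in 3 of 4 IFIT genes and in 0 of the 3 antigen-processing genes. The palindrome TTCNNNGAA was found in 7 of the 32 (21.9%), against 8.13% of all promoters. Among 43 further interferon-induced genes that are not members, 20 held the GAAA pair (46.5%) and 5 the palindrome (11.6%). These shares describe letters and were not tested, and a window without a match says only that these letters are not in it. Several members also lie side by side in the genome (build mm10). Ifit2, Ifit3, Ifit3b and Ifit1 follow each other on chromosome 19 between 34550694 and 34650009, Gbp7, Gbp3 and Gbp2 on chromosome 3 between 142530342 and 142638008, and Psmb9, Tap1 and Psmb8 on chromosome 17 between 34181987 and 34201454. Parp14, Dtx3l and Parp9 are neighbours on chromosome 16, as are Oasl2 and Oasl1 on chromosome 5.

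The libraries held 17580677 to 31332475 counts in genes, so that 3 counts, taken as the floor of detection, stood for 0.0820 to 0.18 CPM. Such floors cover counting error only. Itga8+ replicate 2 and Itga8- replicate 3 leaned towards short genes: across 9015 genes the correlation of a library's deviation from the mean of the other libraries of its population with log2 exon length was -0.47 and -0.51, and across the 41 members -0.41 and -0.50. Itga8+ replicate 3 and Itga8- replicate 2 leaned as strongly towards long genes (0.51 and 0.55 across all these genes, 0.41 and 0.47 across the members). Each lean is relative to the other libraries of the same population. Itga8+ replicate 2 also held the most neutrophil transcripts (18482 CPM summed over 8 markers, against 2842 to 6930 CPM in the other 2 libraries of its population). The sort markers followed the gates in part. Ly6a, which encodes Sca-1, reached 611 to 659 CPM in Sca-1+ MSCs and at most 35.7 CPM elsewhere, and 10 markers of LepR+ stromal cells summed to 49198 to 67749 CPM in CD51+CD140a+ MSCs against 304 to 859 CPM elsewhere. Itga8 stood at 73.5, 35.2 and 199 CPM in Itga8+ MSCs, but also at 57, 82.9 and 53.1 CPM in CD51+CD140a+ MSCs, so that these 2 populations overlap in it.

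The 41 genes were highest as a group in CD51+CD140a+ MSCs, intermediate in Sca-1+ MSCs and lowest in both Alcam+ bone-lining populations. Their median log2 deviation from the mean of all 12 libraries was 1.51, 1.4 and 1.44 in the CD51+CD140a+ libraries and 0.33, 0.017 and 0.41 in the Sca-1+ libraries. In Itga8+ MSCs it was -0.55, -0.28 and -0.60, and in Itga8- BLCs -0.93, -0.66 and -1.10. The 4 ranges did not overlap, while the same median over all genes tested stayed between -0.064 and 0.066 in every library. Summed over the members, the CD51+CD140a+ libraries held 1871, 1913 and 1965 CPM, the Sca-1+ libraries 691, 630 and 759 CPM, the Itga8+ libraries 416, 669 and 391 CPM and the Itga8- libraries 387, 429 and 346 CPM. The sums of the Sca-1+ and Itga8+ libraries overlapped, through Itga8+ replicate 2. Of the 41 members, 31 had their highest mean in CD51+CD140a+ MSCs, and in 23 every CD51+CD140a+ library lay above all 9 other libraries. The remaining members had their highest mean in Sca-1+ MSCs (8 members, the 4 IFIT genes among them) or in Itga8+ MSCs (Oas1a and Dhx58). Without Sca-1+ replicate 3, 34 members were highest in CD51+CD140a+ MSCs and 4 in the Sca-1+ population: the highest mean of Ifit1, Ifit3 and Ifit3b moved to CD51+CD140a+ MSCs and that of Mx1 to Itga8+ MSCs. Leaving out any other library moved the highest mean of at most 3 members. Itga8- BLCs had the highest mean of 0 members and the lowest of 19.

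**Figure D1:**
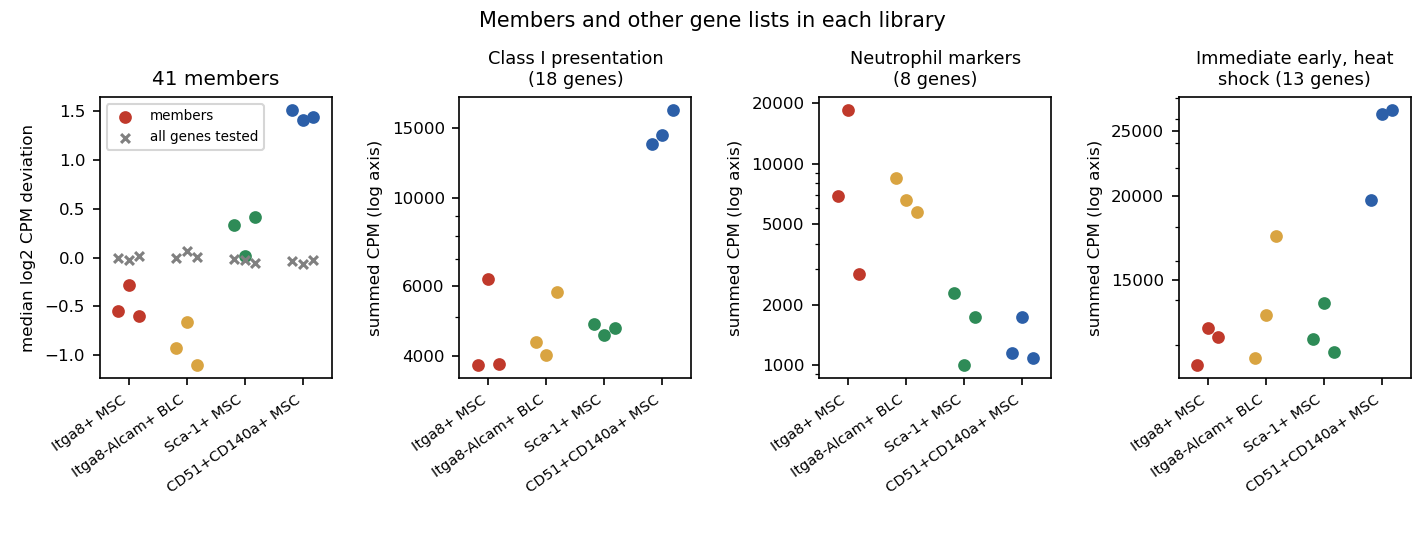
Each point is 1 library, grouped by population on the x axis. The first panel gives the median log2 CPM deviation of the 41 members (crosses: all genes tested), and the other panels give summed CPM on log axes for class I presentation genes, neutrophil markers, and immediate early and heat shock genes; the member medians lie from 1.4 to 1.51 in CD51+CD140a+ MSCs and from -1.10 to -0.66 in Itga8- BLCs.

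**Figure D2:**
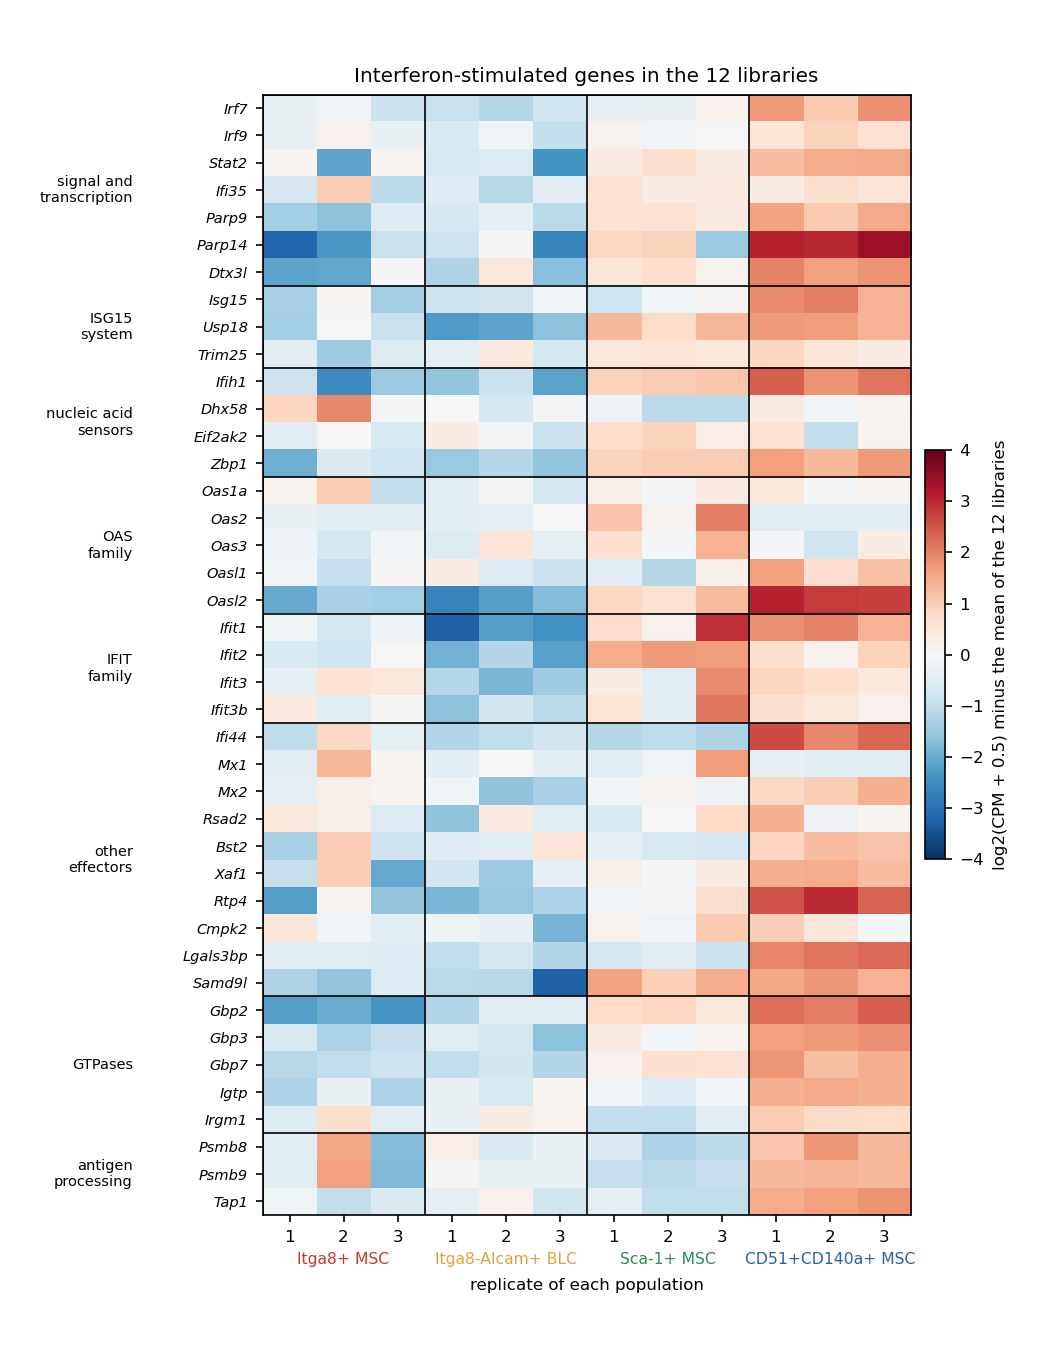
The heat map shows log2(CPM + 0.5) minus the mean of the 12 libraries for the 41 members (rows, ordered by role) in the 12 libraries (columns, grouped by population). The 3 CD51+CD140a+ columns are high for most rows, the Ifit2 row is highest in the Sca-1+ columns, and Itga8+ replicate 2 differs from the other 2 Itga8+ libraries in several rows.

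A difference was called where the edgeR quasi-likelihood test gave a Benjamini-Hochberg adjusted p (false discovery rate, FDR) under 0.1 over all 18648 genes, and where the populations differed more than 2-fold. CD51+CD140a+ MSCs were higher than Itga8- BLCs in 31 of 41 members and lower in 0, where 35.3% of all genes were called, 14.9% higher and 20.4% lower in CD51+CD140a+ MSCs. Against Itga8+ MSCs they were higher in 23 and lower in 1, namely Mx1 (35.6% of all genes called, 14.3% higher in CD51+CD140a+ MSCs). Against Sca-1+ MSCs they were higher in 17 and lower in 2, namely Ifit2 and Oas2 (20.5% called, 9.3% higher in CD51+CD140a+ MSCs). Mx1 and Oas2 passed the filter only through libraries of populations other than CD51+CD140a+ MSCs, so their lower calls give no support. As shares of the members, those higher in CD51+CD140a+ MSCs were 75.6%, 56.1% and 41.5%. The median log2 difference of the members was 2.29, 1.79 and 1.04, beside -0.091, -0.18 and 0.0026 for all genes tested. The libraries did not overlap in 34, 27 and 29 members, where 49.8%, 44.4% and 45.9% of all genes did not. The 3 comparisons share the CD51+CD140a+ libraries. The 13 members called higher in CD51+CD140a+ MSCs than in each other population were Ifi44, Isg15, Oasl1, Oasl2, Irf7, Rtp4, Parp14, Lgals3bp, Gbp2, Gbp3, Gbp7, Igtp and Tap1. Within these 13, the difference from Sca-1+ MSCs lost its call under 9 of 22 alternative settings in Parp14 and under 6 in Gbp7, and Oasl1 lost its call under 5 in each comparison. Oas1a, Oas3, Rsad2 and Eif2ak2 were called in none of the 6 comparisons of populations. A single gene tested on its own with 3 libraries against 3 cannot reach an exact two-sided permutation p below 0.1.

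**Figure D3:**
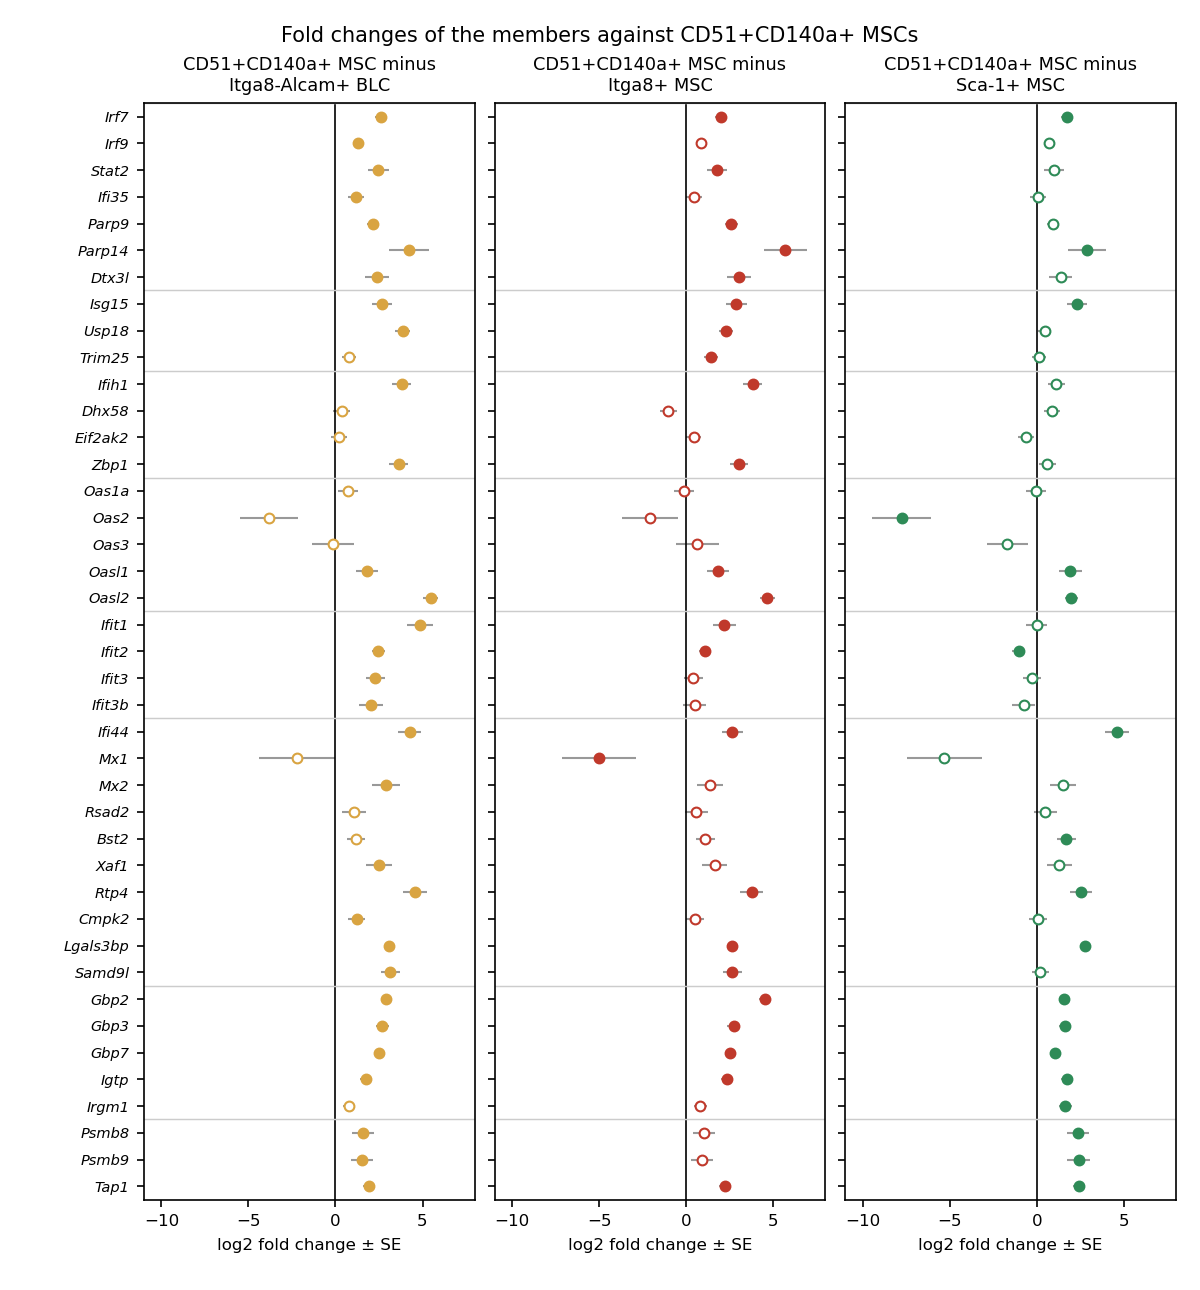
Points give the log2 fold change of each member (rows) in CD51+CD140a+ MSCs minus Itga8- BLCs, Itga8+ MSCs and Sca-1+ MSCs, in 1 panel each, with bars of 1 standard error; filled points were called. Most points lie right of 0 in the first 2 panels (31 and 23 members called higher), and the IFIT genes move to about 0 or left of it in the panel against Sca-1+ MSCs; the fitted values of Oas2 and Mx1, at the floor in CD51+CD140a+ MSCs, are no bounds.

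Among the genes of signalling and transcription, CD51+CD140a+ MSCs were higher in all 7 members against Itga8- BLCs, in 5 of 7 against Itga8+ MSCs and in 2 of 7 against Sca-1+ MSCs (Irf7 and Parp14). Stat2, which carries the signal of type I interferon to the nucleus, stood at 49.97, 58.8 and 60.0 CPM in CD51+CD140a+ MSCs and at 26.3, 32.4 and 25.9 CPM in Sca-1+ MSCs. It stood at 21.8, 4.47 and 22.4 CPM in Itga8+ MSCs and at 13.1, 13.9 and 3.6 CPM in Itga8- BLCs. The 3 highest libraries were thus those of CD51+CD140a+ MSCs, with a log2 difference of 2.46 ± 0.59 (SE) from Itga8- BLCs (FDR = 0.0083) and 1.79 ± 0.58 from Itga8+ MSCs (FDR = 0.035). The lowest Stat2 library of each bone-lining population was the one that leaned towards short genes, and Stat2 has 5926 bases of exon. Irf7, the regulator that amplifies type I interferon transcription, was at 26.6 to 45.6 CPM in CD51+CD140a+ MSCs and at most 14.2 CPM in any other library, with log2 differences of 2.02 ± 0.33, 2.59 ± 0.34 and 1.75 ± 0.33 against Itga8+, Itga8- and Sca-1+ populations (FDR = 0.00086, 0.00017 and 0.0026). Irf9, the DNA-binding member of the same complex as Stat2, was called only against Itga8- BLCs (1.27 ± 0.29, FDR = 0.0064).

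Parp14, an ADP-ribosyltransferase of the interferon response, showed the largest fitted difference from Itga8+ MSCs among members with at least 5 CPM. It was at 37.9, 36.5 and 48.7 CPM in CD51+CD140a+ MSCs, 7.52, 8.14 and 1.12 CPM in Sca-1+ MSCs, 2.09, 4.17 and 0.240 CPM in Itga8- BLCs and 0, 0.416 and 1.96 CPM in Itga8+ MSCs. No CD51+CD140a+ library overlapped another population, but the spread among the low libraries was wide, and the log2 differences were 5.71 ± 1.26, 4.23 ± 1.16 and 2.88 ± 1.08 against Itga8+, Itga8- and Sca-1+ cells (FDR = 0.0056, 0.017 and 0.097). Its partners Parp9 and Dtx3l, which form a pair that modifies histones, were also called against both bone-lining populations, with log2 differences of 2.16 to 3.04. These neighbours overlap on opposite strands and their counts may be shared. Ifi35, a leucine zipper protein of the interferon response, stood apart from this order. It was at 35.6, 44.8 and 40.4 CPM in CD51+CD140a+ MSCs, 42.5, 35 and 37.7 CPM in Sca-1+ MSCs and 19.8, 13 and 20.8 CPM in Itga8- BLCs, whereas Itga8+ MSCs held 17.7, 57.8 and 13.3 CPM, with their replicate 2 the highest library of all. It was called only in CD51+CD140a+ MSCs against Itga8- BLCs (1.17 ± 0.47, FDR = 0.078), a call lost under 10 of 22 alternative settings.

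The ISG15 system attaches the ubiquitin-like protein Isg15 to other proteins. Isg15 itself was at 10.5, 11.6 and 7.28 CPM in CD51+CD140a+ MSCs and at 0.636 to 2.65 CPM in the other 9 libraries, which overlapped each other. It was higher in CD51+CD140a+ MSCs than in Itga8+, Itga8- and Sca-1+ cells by 2.88 ± 0.59, 2.66 ± 0.58 and 2.31 ± 0.57 on the log2 scale (FDR = 0.0036, 0.0051 and 0.015). Usp18, the protease that removes Isg15 and damps the interferon receptor, followed a different order. It stood at 33.8, 33.1 and 27.2 CPM in CD51+CD140a+ MSCs and nearly as high in Sca-1+ MSCs (25.5, 17.1 and 26.1 CPM), at 3.61, 10.1 and 5.14 CPM in Itga8+ MSCs and at 1.69, 1.95 and 2.88 CPM in Itga8- BLCs. No libraries overlapped between any pair of these 4 populations. The differences of Sca-1+ MSCs from Itga8+ MSCs (1.86 ± 0.40, FDR = 0.0093) and Itga8- BLCs (3.40 ± 0.43, FDR = 0.00028) were called, while that between CD51+CD140a+ and Sca-1+ MSCs was not. Trim25, a ubiquitin and Isg15 ligase that activates RIG-I, was called higher than in Itga8+ MSCs in both CD51+CD140a+ (1.44 ± 0.41, FDR = 0.020) and Sca-1+ MSCs (1.32 ± 0.41, FDR = 0.047), the latter call being lost without any one of the Sca-1+ libraries.

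The 4 sensors of foreign nucleic acid split into a pair that followed the common order and a pair that did not. Ifih1, which encodes the double-stranded RNA sensor MDA5, was at 40.7, 26.9 and 33.7 CPM in CD51+CD140a+ MSCs, 14.4, 15.4 and 16.3 CPM in Sca-1+ MSCs, 2.14, 3.85 and 1.26 CPM in Itga8- BLCs and 3.91, 0.831 and 2.37 CPM in Itga8+ MSCs. The bone-lining populations overlapped each other and no other population, and Ifih1 was higher in CD51+CD140a+ MSCs by 3.83 ± 0.56 and 3.80 ± 0.55 (FDR = 0.00035 and 0.00036) and in Sca-1+ MSCs by 2.69 ± 0.53 and 2.66 ± 0.53 (FDR = 0.0058 and 0.0046) than in Itga8+ and Itga8- cells. Zbp1, the sensor of Z-form nucleic acid, was called in the same 4 comparisons, with log2 differences of 2.41 to 3.64. Dhx58, which encodes the related helicase LGP2, had its highest mean in Itga8+ MSCs instead: 23.5, 49.4 and 12.2 CPM, against 12.6, 7.83 and 12.4 CPM in Itga8- BLCs, 11.1, 5.85 and 5.90 CPM in Sca-1+ MSCs and 16.2, 11.7 and 13.9 CPM in CD51+CD140a+ MSCs. Only the difference from Sca-1+ MSCs was called (1.9 ± 0.48, FDR = 0.021), and Itga8+ replicate 2 was more than 2 times above both other libraries of its population; without it the difference was 1.21 and still called. Eif2ak2, which encodes the kinase PKR that halts translation, was called nowhere: its libraries spanned 5.84 to 9.50 CPM in Itga8+ MSCs, 4.92 to 11.6 CPM in Itga8- BLCs, 11.4 to 17.7 CPM in Sca-1+ MSCs and 4.56 to 14.6 CPM in CD51+CD140a+ MSCs.

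The OAS family makes short oligoadenylates that activate RNase L, with the exception of the inactive OAS-like protein Oasl1. Oasl2, an active synthetase, was per length the most abundant of them in CD51+CD140a+ MSCs. It stood at 68.8, 56.7 and 54.7 CPM in CD51+CD140a+ MSCs, 14.3, 12 and 19.1 CPM in Sca-1+ MSCs, 1.53, 2.86 and 2.66 CPM in Itga8+ MSCs and 0.797, 1.3 and 1.98 CPM in Itga8- BLCs. Its mean in CD51+CD140a+ MSCs was 3.97 times that in Sca-1+ MSCs, 25.6 times that in Itga8+ MSCs and 44.2 times that in Itga8- BLCs, with log2 differences of 1.99 ± 0.37, 4.67 ± 0.42 and 5.47 ± 0.44 (FDR = 0.0024, 1.2e-05 and 5.6e-06). Sca-1+ MSCs were in turn above Itga8+ MSCs by 2.69 ± 0.39 (FDR = 0.00089) and above Itga8- BLCs by 3.48 ± 0.40 (FDR = 0.00016), and only the bone-lining libraries overlapped. Oasl1, which restrains Irf7 translation, was called higher in CD51+CD140a+ MSCs than in each other population, by 1.81 to 1.93, at 2.87 to 6.01 CPM. Oas1a was called in no comparison, at 2.49, 1.63 and 1.80 CPM in CD51+CD140a+ MSCs, 2.1, 1.58 and 2.34 CPM in Sca-1+ MSCs, 1.93, 3.79 and 0.636 CPM in Itga8+ MSCs and 1.10, 1.62 and 0.839 CPM in Itga8- BLCs; 42.4% of its 50-base words are unique among transcripts, so its counts are uncertain.

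Oas2 stood apart at a very low level. Its counts were 0 in all 3 CD51+CD140a+ libraries, it was at most 0.18 CPM in the bone-lining libraries, and it was at 0.996, 0.254 and 2.25 CPM in Sca-1+ MSCs. Against the mean floor of 3 counts per library in the lower population, the mean in Sca-1+ MSCs was higher by at least 13.2-fold in the comparison with CD51+CD140a+ MSCs, at least 7.33-fold in that with Itga8+ MSCs and at least 7.47-fold in that with Itga8- BLCs. Oas2 passed the filter on low counts only through 2 Sca-1+ libraries and so had to differ, so these values are a description, and its calls as higher in Sca-1+ MSCs give no support. Those against both bone-lining populations were lost without Sca-1+ replicate 3. That against Itga8- BLCs was lost under 6 of the 21 alternative settings in which it could be computed.

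The IFIT family binds foreign RNA ends and blocks their translation, and its 4 members had their highest mean in Sca-1+ MSCs. For Ifit1, Ifit3 and Ifit3b that rank rested on Sca-1+ replicate 3, and only for Ifit2 was the difference from CD51+CD140a+ MSCs called. Ifit1 was at 14.6, 10.2 and 70.6 CPM in Sca-1+ MSCs, 33.4, 37.3 and 24.5 CPM in CD51+CD140a+ MSCs, 7.82, 5.35 and 7.45 CPM in Itga8+ MSCs and 0.498, 1.53 and 1.26 CPM in Itga8- BLCs. Sca-1+ replicate 3 was the highest library and set the width of that population, which overlapped CD51+CD140a+ MSCs. Both were above Itga8- BLCs by 4.85 ± 0.74 (FDR = 0.00093 for Sca-1+ and 0.00052 for CD51+CD140a+ MSCs) and above Itga8+ MSCs by 2.21 ± 0.65 and 2.20 ± 0.65 (FDR = 0.040 and 0.025). Ifit2 was highest in Sca-1+ MSCs without such a library: 33.9, 39.8 and 38.6 CPM there, 18.7, 13.2 and 22.9 CPM in CD51+CD140a+ MSCs, 7.52, 6.60 and 11.7 CPM in Itga8+ MSCs and 2.79, 4.96 and 2.22 CPM in Itga8- BLCs. No pair of populations overlapped, and all 6 differences of Ifit2 were called, with Sca-1+ MSCs 2.05-fold above CD51+CD140a+ MSCs by the means (1.03 ± 0.37 on the log2 scale, FDR = 0.077), 4.35-fold above Itga8+ MSCs (2.12 ± 0.38, FDR = 0.0032) and 11.3-fold above Itga8- BLCs (3.49 ± 0.40, FDR = 0.00015). The call between Sca-1+ and CD51+CD140a+ MSCs was lost under 9 of 22 alternative settings, among them library totals as the scaling, the replicate block and the omission of any Sca-1+ library, and that between CD51+CD140a+ and Itga8+ MSCs under 5.

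Ifit3 was at 10.6, 6.16 and 32.5 CPM in Sca-1+ MSCs, 15.6, 14.1 and 11.5 CPM in CD51+CD140a+ MSCs, 6.38, 12.8 and 11.7 CPM in Itga8+ MSCs and 3.54, 2.04 and 2.88 CPM in Itga8- BLCs. Every other library lay above the 3 Itga8- libraries, and the calls were against that population alone, by 2.54 ± 0.57 in Sca-1+ (FDR = 0.0084) and 2.29 ± 0.56 in CD51+CD140a+ MSCs (FDR = 0.0094). Ifit3 and its neighbour Ifit3b share sequence (48.8% and 55.0% unique 50-base words), so reads between them may have been split or dropped. Sca-1+ replicate 3 was more than 2 times above both other Sca-1+ libraries in 5 of 39 members that could be compared (Ifit1, Ifit3, Ifit3b, Oas2 and Oas3; 12.8%), as it was in 0.944% of all genes. The Ifit1 call between Itga8+ and Sca-1+ MSCs was lost with the replicate block and in a fit of these 2 populations alone. It was also lost without Sca-1+ replicate 3, where the log2 difference of Itga8+ MSCs minus Sca-1+ MSCs in Ifit1 was -0.85. That of Itga8- BLCs minus Sca-1+ MSCs was then -3.49 in Ifit1 and -1.57 in Ifit3, both still called.

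Of the 10 other antiviral effectors, 7 were called higher in CD51+CD140a+ MSCs than in Itga8- BLCs, 4 than in Itga8+ MSCs and 4 than in Sca-1+ MSCs. Lgals3bp, a secreted galectin-binding glycoprotein, was per length the most abundant member in each population, at 578, 647 and 705 CPM in CD51+CD140a+ MSCs. It stood at 107, 104 and 103 CPM in Itga8+ MSCs, 74.6, 93.1 and 64.6 CPM in Itga8- BLCs and 93.0, 105 and 80.5 CPM in Sca-1+ MSCs. The 3 lower populations lay within a narrow band and CD51+CD140a+ MSCs were 6.15-fold, 8.31-fold and 6.92-fold above them (2.62 ± 0.25, 3.05 ± 0.25 and 2.79 ± 0.25; FDR = 1.8e-05, 6.8e-06 and 1.2e-05). Per length it reached 905 ± 42.4 TPM (SD, n = 3; the CPM scale corrected for exon length) in CD51+CD140a+ MSCs.

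Rtp4, a chaperone that restrains interferon responses to flaviviruses, was at 29.5, 40.9 and 26.1 CPM in CD51+CD140a+ MSCs, 4.37, 4.48 and 7.73 CPM in Sca-1+ MSCs, 0.643, 5.14 and 1.27 CPM in Itga8+ MSCs and 0.996, 1.34 and 1.74 CPM in Itga8- BLCs. CD51+CD140a+ MSCs did not overlap any other population and were higher by 3.77 ± 0.66, 4.56 ± 0.69 and 2.54 ± 0.62 than Itga8+, Itga8- and Sca-1+ cells (FDR = 0.0013, 0.00046 and 0.013), and Sca-1+ MSCs were higher than Itga8- BLCs by 2.02 ± 0.63 (FDR = 0.040), a call lost without Itga8- replicate 1 or Sca-1+ replicate 3. Ifi44, a restrictor of viral replication, had the largest difference between CD51+CD140a+ and Sca-1+ MSCs among called members with at least 5 CPM in the higher population. It was at 10.6, 6.42 and 8.34 CPM in CD51+CD140a+ MSCs, 0.332, 0.407 and 0.281 CPM in Sca-1+ MSCs, 0.299, 0.417 and 0.6 CPM in Itga8- BLCs and 0.396, 2.70 and 0.924 CPM in Itga8+ MSCs. The mean in CD51+CD140a+ MSCs was 24.8-fold that in Sca-1+ MSCs (4.61 ± 0.69, FDR = 0.00050), and Ifi44 was the only member besides Dhx58 called higher in Itga8+ than in Sca-1+ MSCs (1.96 ± 0.65, FDR = 0.061). That call was lost under 9 of 22 alternative settings, among them the replicate block and the omission of any Sca-1+ library or of Itga8+ replicate 2 (0.92).

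Samd9l, which restricts poxviruses and limits growth factor signalling in blood cells, was shared by Sca-1+ and CD51+CD140a+ MSCs. It stood at 86.1, 55.0 and 78.4 CPM in the former and 82.8, 94.5 and 73.6 CPM in the latter, which overlapped, at 11.7, 9.09 and 19.0 CPM in Itga8+ MSCs and at 13, 12.7 and 2.52 CPM in Itga8- BLCs. Sca-1+ MSCs were higher by 2.47 ± 0.52 and 2.96 ± 0.53 (FDR = 0.0084 and 0.0025) and CD51+CD140a+ MSCs by 2.66 ± 0.53 and 3.15 ± 0.54 (FDR = 0.0028 and 0.0010) than Itga8+ and Itga8- cells. Bst2, the membrane tether that holds virions on cells, was at 30.3, 39.4 and 36.5 CPM in CD51+CD140a+ MSCs and 12.3, 10.2 and 10.1 CPM in Sca-1+ MSCs (1.70 ± 0.55, FDR = 0.052), a call lost under 6 of 22 alternative settings. In the bone-lining cells it was at 6.38, 33.8 and 9.07 CPM (Itga8+) and 11.4, 12.1 and 23.6 CPM (Itga8-), where the highest library of each was the one that leaned towards short genes. Mx2, Xaf1 and Cmpk2 were called only between CD51+CD140a+ MSCs and Itga8- BLCs, by 1.21 to 2.92, with that of Cmpk2 lost under 11 of 22 alternative settings. The difference of Mx2 depended on Itga8- replicate 1 (20 counts, beside 1 and 3 in the other Itga8- libraries): as Itga8- minus CD51+CD140a+ cells it was -2.92 with and -4.80 without this library, and called in both cases. Mx1, a dynamin-like restriction factor that is defective in C57BL/6 mice by a known deletion, was called higher in Itga8+ than in CD51+CD140a+ MSCs (at least 5.39-fold against the floor, FDR = 0.095). That value rests on 1.19 CPM in Itga8+ replicate 2, beside 0 and 0.231 CPM in the other libraries of the population. Mx1 passed the filter on low counts only through 2 libraries, of Itga8+ and Sca-1+ MSCs, so its call gives no support. The call was lost under 11 of the 21 alternative settings in which it could be computed, among them the omission of Itga8+ replicate 2.

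The interferon-induced GTPases act in the defence against pathogens held in vacuoles. CD51+CD140a+ MSCs were called higher in all 5 against Sca-1+ MSCs and in 4 of 5 against each bone-lining population, where Irgm1 was not called. Gbp2 gave the clearest order of the 4 populations: 4.01, 4.78 and 3.58 CPM in Itga8+ MSCs, 8.81, 14.7 and 14.7 CPM in Itga8- BLCs, 34.2, 36.4 and 27.5 CPM in Sca-1+ MSCs and 94.6, 85.2 and 108 CPM in CD51+CD140a+ MSCs. None of the populations overlapped, and all 6 differences were called. CD51+CD140a+ MSCs were 23.2-fold above Itga8+ MSCs, 7.51-fold above Itga8- BLCs and 2.93-fold above Sca-1+ MSCs (4.54 ± 0.32, 2.91 ± 0.30 and 1.55 ± 0.28; FDR = 2.3e-06, 3.0e-05 and 0.0021). Sca-1+ MSCs were above Itga8+ MSCs by 2.99 ± 0.30 (FDR = 0.00013) and above Itga8- BLCs by 1.36 ± 0.28 (FDR = 0.0059). Igtp, the GTPase Irgm3, was at 51.4, 54.7 and 51.3 CPM in CD51+CD140a+ MSCs, 17.2, 13 and 17.4 CPM in Sca-1+ MSCs, 15.2, 11.9 and 19.9 CPM in Itga8- BLCs and 7.67, 15.4 and 7.57 CPM in Itga8+ MSCs. The 3 lower populations overlapped, and CD51+CD140a+ MSCs were above them by 1.72 ± 0.34, 1.74 ± 0.34 and 2.36 ± 0.35 (FDR = 0.0036, 0.0025 and 0.00039). Gbp3 and Gbp7 were called in the same 5 comparisons, namely all but that of the bone-lining populations with each other, although for Gbp3 the calls of Sca-1+ MSCs against Itga8+ and Itga8- cells were lost under 5 and 4 of 22 alternative settings.

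The antigen-processing genes, Psmb8 and Psmb9 of the immunoproteasome and the peptide transporter subunit Tap1, were called higher in CD51+CD140a+ MSCs than in Sca-1+ MSCs and Itga8- BLCs in all 3, and than in Itga8+ MSCs in Tap1 alone. Tap1 was at 71.8, 79.7 and 89.6 CPM in CD51+CD140a+ MSCs, 19.5, 12.5 and 12.7 CPM in Sca-1+ MSCs, 19.7, 28.8 and 15.1 CPM in Itga8- BLCs and 22.3, 12.7 and 16.6 CPM in Itga8+ MSCs. The 3 lower populations overlapped, and the log2 differences were 2.43 ± 0.34, 1.92 ± 0.34 and 2.22 ± 0.34 (FDR = 0.00034, 0.0012 and 0.00050). Psmb8 was at 90.5, 140 and 102 CPM in CD51+CD140a+ MSCs, 27.5, 17.2 and 19.7 CPM in Sca-1+ MSCs, 49.5, 27.6 and 34.1 CPM in Itga8- BLCs and 30.4, 121 and 12 CPM in Itga8+ MSCs. Replicate 2 of Itga8+ MSCs reached the CD51+CD140a+ range, and this library, with its myeloid and neutrophil transcripts and lean towards short genes, was more than 2 times above both others of its population in 11 of 37 members that could be compared (29.7%), as in 20.04% of all genes; the part of these features in the values was not tested. Psmb8 was higher in CD51+CD140a+ than in Sca-1+ MSCs by 2.37 ± 0.65 (FDR = 0.026) and than in Itga8- BLCs by 1.58 ± 0.64 (FDR = 0.080). Against Itga8- BLCs the call of Psmb8 was lost under 9 and that of Psmb9 under 11 of 22 alternative settings, among them the replicate block, an FDR under 0.05 and the omission of any library of either population. Part of the exons of Psmb8 (14.7%) and of Ifi35 (16.8%) lies opposite another annotated gene, which counts without strand could not separate.

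Immunoproteasome subunits replace constitutive ones, so their share is a further description of these genes. By TPM, Psmb8 made up 52.3%, 59.0% and 57.2% of Psmb8 plus Psmb5 in CD51+CD140a+ MSCs, and 24.7%, 17.2% and 21.3% in Sca-1+ MSCs. In Itga8+ MSCs it made up 16.4%, 24.3% and 7.61%, and in Itga8- BLCs 17.6%, 15.0% and 8.44%. In this share Itga8+ replicate 2 lay well below the CD51+CD140a+ libraries, unlike in the level of Psmb8. Psmb9 made up 6.97% to 11.99% of Psmb9 plus Psmb6 in CD51+CD140a+ MSCs and 1.01% to 3.29% elsewhere, and Psmb10, the remaining inducible subunit and no member, made up 77.4% to 83.3% of Psmb10 plus Psmb7 against 38.2% to 67.8%. By these shares the inducible form stood above the constitutive one in CD51+CD140a+ MSCs for Psmb8 and Psmb10 and not for Psmb9. For Psmb10 it also did so in Sca-1+ MSCs (67.8%, 53.5% and 61.4%) and in Itga8+ replicate 2 (67.3%). TPM rests on the annotated exon length of each gene, so the balance within a pair depends on that length. Psmb5 itself was at 20.3 to 25.9 CPM in CD51+CD140a+ MSCs and at 19.4 to 22.3 CPM in Sca-1+ MSCs, which overlapped and were not called different, and at 38.8 to 100.3 CPM in the bone-lining libraries.

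Sca-1+ MSCs were called higher than Itga8- BLCs in 16 members and lower in 0, where 26.4% of all genes were called and 11.9% were higher in Sca-1+ MSCs. The 16 include Oas2, which the filter fixed, and were all 4 IFIT genes, Rtp4, Samd9l, Usp18, Oas2, Oasl2, Stat2, Parp9, Ifih1, Zbp1, Gbp2, Gbp3 and Gbp7. The call of Stat2 was lost under 10 of 22 alternative settings, among them the replicate block and the omission of any Sca-1+ library. Against Itga8+ MSCs they were higher in 13 members, Oas2 again included, and lower in 2 (Ifi44 and Dhx58), where 21.7% of all genes were called, 8.89% higher and 12.9% lower in Sca-1+ MSCs. The shares of members higher in Sca-1+ MSCs were 39.0% and 31.7%, and the median log2 differences 1.13 and 0.67, beside -0.12 and -0.16 over all genes. Taken as Itga8+ minus Sca-1+ MSCs, the second median was -0.39 without Sca-1+ replicate 3 and -1.08 without Itga8+ replicate 2. The libraries did not overlap in 24 members in the first and 18 in the second comparison, where 45.7% and 37.6% of all genes did not. None of the 3 antigen-processing genes was among these calls, and of the ISG15 system Isg15 itself was not. When Sca-1+ replicate 3 was left out, 12 and 10 members were called in these comparisons in either direction.

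Itga8+ MSCs and Itga8- BLCs, the divisions of the Alcam+ bone-lining gate, differed in 4 members, or 3 higher and 1 lower in Itga8+ MSCs, in a comparison in which 3.82% of all genes were called, 1.66% higher and 2.16% lower in Itga8+ MSCs. Ifit1 (2.64 ± 0.69, FDR = 0.073), Usp18 (1.54 ± 0.41, FDR = 0.079) and Ifit2 (1.37 ± 0.38, FDR = 0.092) were higher in Itga8+ MSCs, and Gbp2 was higher in Itga8- BLCs (1.63 ± 0.29, FDR = 0.0096). The libraries of the populations did not overlap in any of the 4 genes, and in 7 members in all, where 14.2% of all genes did not overlap. A shift of smaller size was seen over the list, with a median of 0.50 in favour of Itga8+ MSCs beside 0.084 over all genes. It was smaller without the libraries that leaned towards short genes: the median was 0.14 without Itga8+ replicate 2 (-0.0034 over all genes), 0.32 without Itga8- replicate 3 and 0.020 without both (0.0050 over all genes). Without the libraries that leaned towards long genes it was 0.45 (Itga8+ replicate 3) and 0.54 (Itga8- replicate 2). The calls of Ifit1, Usp18 and Ifit2 were lost under 10, 12 and 15 of 22 alternative settings, among them the omission of single libraries, whereas that of Gbp2 was lost under 1, a fit of these 2 populations alone.

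Genes of the interferon ligands gave almost no counts. Of 21 type I, II and III interferon genes, 18 had no count in any library and the highest count of any was 4. Ifng had 0 counts and Ifnb1 at most 1, so none could be tested. Both receptors were present. Ifnar2, the chain that binds type I interferon with Ifnar1, was at 179, 205 and 217 CPM in CD51+CD140a+ MSCs and at 30.3 to 88.1 CPM in the other libraries, with log2 differences of 2.41 ± 0.30, 1.64 ± 0.29 and 2.34 ± 0.29 against Itga8+, Itga8- and Sca-1+ cells (FDR = 0.00010, 0.0012 and 0.00014). Ifnar1 was called higher in CD51+CD140a+ MSCs than in both bone-lining populations only, and Ifngr1, the ligand-binding chain for interferon gamma, likewise (1.24 ± 0.30 and 1.43 ± 0.30). Ifngr2 was called against Itga8- and Sca-1+ cells (1.32 ± 0.31 and 1.23 ± 0.31).

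Irf1, the interferon gamma-responsive regulator of antigen presentation, was at 921, 1172 and 1602 CPM in CD51+CD140a+ MSCs and at 100.4 to 308 CPM elsewhere, a difference of 3.26 ± 0.35, 2.53 ± 0.34 and 3.06 ± 0.35 (FDR = 4.1e-05, 0.00019 and 6.6e-05). Of the 21 receptor and signalling genes, 8, 9 and 7 were higher and 4, 4 and 0 lower in CD51+CD140a+ MSCs than in Itga8+, Itga8- and Sca-1+ cells. Among 17 tested genes of nucleic acid sensing that are not members, 6, 6 and 4 were higher and 0, 1 and 1 lower. Of all genes tested, 14.3%, 14.9% and 9.3% were higher and 21.2%, 20.4% and 11.2% lower in these comparisons. The lower signalling genes, at 19.0%, 19.0% and 0%, were thus near or under the share of all genes. The higher ones made up 38.1%, 42.9% and 33.3% of the signalling and 35.3%, 35.3% and 23.5% of the sensing genes. Higher were, among others, Samhd1, which depletes the nucleotides that viruses need (312, 409 and 386 CPM against 25.5 to 62.3 CPM), and Tlr3, the endosomal RNA receptor (20.2 to 37.2 CPM against 1.61 to 16.9 CPM).

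Of 52 further interferon-induced genes tested, 27, 33 and 12 were higher and 5, 4 and 8 lower in CD51+CD140a+ MSCs than in Itga8+, Itga8- and Sca-1+ cells, with median log2 differences of 1.78, 2.06 and 0.84. The higher ones made up 51.9%, 63.5% and 23.1%, against 14.3%, 14.9% and 9.3% of all genes. The lower ones made up 9.62%, 7.69% and 15.4%, against 21.2%, 20.4% and 11.2% of all genes. Iigp1, another GTPase against vacuolar pathogens, was at 258, 148 and 192 CPM in CD51+CD140a+ MSCs and at most 21.5 CPM elsewhere, and Cxcl9, a T cell chemokine induced by interferon gamma, at 39.2, 27.5 and 29.3 CPM against at most 2.14 CPM. Slfn5, a Schlafen family gene, was high in both CD51+CD140a+ (50.7, 32.8 and 74.3 CPM) and Sca-1+ MSCs (32.9, 27.3 and 14.9 CPM) and at most 2.32 CPM in bone-lining cells. The 8 that were higher in Sca-1+ than in CD51+CD140a+ MSCs included the DNA-binding Ifi200 family genes Ifi205, at 68.9, 50.1 and 52.9 CPM in Sca-1+ MSCs and at most 0.899 CPM in any other library, and Ifi204, at 77.4 to 95.7 CPM in Sca-1+ MSCs and 23.8 to 32.5 CPM in CD51+CD140a+ MSCs.

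Class I presentation genes, which display peptides made by the proteasome, followed the members in CD51+CD140a+ MSCs but not in Sca-1+ MSCs. Of 18 genes, 12, 11 and 12 were higher in CD51+CD140a+ MSCs than in Itga8+, Itga8- and Sca-1+ cells and 0 were lower. That is 66.7%, 61.1% and 66.7%, against 14.3%, 14.9% and 9.3% of all genes. The 18 genes summed to 13622 to 16634 CPM there against 3781 to 6238 CPM elsewhere. H2-K1 was at 2147, 2176 and 2666 CPM in CD51+CD140a+ MSCs, at 263 to 533 CPM in Itga8- BLCs and at 128 to 168 CPM in Sca-1+ MSCs, and was higher in Itga8- BLCs than in Sca-1+ MSCs (1.3 ± 0.35, FDR = 0.022). Nlrc5, the activator of class I transcription, was at 32.2, 25.5 and 31.3 CPM in CD51+CD140a+ MSCs and at most 2.36 CPM elsewhere (4.81 ± 1.21 and 4.96 ± 1.22 against Itga8- and Sca-1+ cells, while the Itga8+ libraries, with 0, 2 and 6 counts, had a mean under the floor, and no fold is given). Class I genes are near-identical copies of each other, so counts of single H2 genes are uncertain. Class II genes, which blood cells use, went the other way: 5 of 7 were higher in each bone-lining population than in CD51+CD140a+ MSCs. Of all genes, 21.2% were so in Itga8+ MSCs and 20.4% in Itga8- BLCs.

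Markers of white blood cells did not follow the order of the members. Summed over 14 myeloid and lymphoid markers, CD51+CD140a+ MSCs held 72.6 to 136 CPM and Sca-1+ MSCs 174 to 582 CPM, against 337 to 3406 CPM in Itga8+ MSCs and 995 to 1062 CPM in Itga8- BLCs. All 8 neutrophil markers were called higher in each bone-lining population than in CD51+CD140a+ MSCs, whose 3 libraries summed to 1092 to 1737 CPM. Of all genes, 14.3%, 14.9% and 9.3% were called higher in CD51+CD140a+ MSCs than in Itga8+, Itga8- and Sca-1+ cells. Called lower there were 21.2%, 20.4% and 11.2% of all genes. Cd3e of T cells was at the floor in all 12 libraries. Erythroid markers were higher in sum in CD51+CD140a+ MSCs (475 to 537 CPM over 8 genes) than in Itga8- BLCs (208 to 438 CPM) and Sca-1+ MSCs (189 to 347 CPM), while Itga8+ MSCs held 184, 1602 and 156 CPM. Of these 8, 1, 0 and 1 were called higher in CD51+CD140a+ MSCs than in Itga8+, Itga8- and Sca-1+ cells and 0 lower, and their part in the members' values was not tested. Of 8 endothelial markers, the angiopoietin receptor Tek alone was called higher in Sca-1+ MSCs than in each other population, at 56.2 to 93.3 CPM against at most 4.01 CPM. In CD51+CD140a+ MSCs 1 of the 8, the clotting factor carrier Vwf, was called higher than in each other population (10.8, 3.07 and 7.51 CPM against 0.328 to 4.63 CPM), and 2, 1 and 1 were lower than in Itga8+, Itga8- and Sca-1+ cells; the part of these cells in the members' values was not tested.

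Immediate early and heat shock genes, which respond to cell isolation, summed to 19752 to 26852 CPM over 13 genes in CD51+CD140a+ MSCs and to 11191 to 17436 CPM elsewhere. Of the 13, 6, 5 and 5 were higher and 1, 4 and 2 lower in CD51+CD140a+ MSCs than in Itga8+, Itga8- and Sca-1+ cells. The higher ones made up 46.2%, 38.5% and 38.5%, against 14.3%, 14.9% and 9.3% of all genes. The lower ones made up 7.69%, 30.8% and 15.4%, against 21.2%, 20.4% and 11.2% of all genes. Their part in the interferon-stimulated genes was not tested.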

How the data were processed

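RNA of 2000 sorted cells per sample was converted to cDNA (SMART-Seq v4) and tagmented (Nextera XT) by the authors. The deposited values are raw read counts per Ensembl gene in each of 12 libraries, not normalized. The submitters' processing notes name FastQC 0.11.7, Trimmomatic 0.38, HISAT2 2.1.0, SAMtools 1.9 and featureCounts 1.6.3, whereas the study's methods name TopHat with Bowtie2 and mm10. The strand setting and annotation release are not given in the sources used here.

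Symbols came from GENCODE M21, in which 259 of 49585 identifiers were not found. All 12 libraries (17580677 to 31332475 counts) entered 1 edgeR 4.0.16 quasi-likelihood fit (R 4.3.3, TMM, population as the only term) over the 18648 genes that reached 0.5 CPM in any library, and each of 6 comparisons was adjusted by Benjamini-Hochberg over them. Calls needed FDR under 0.1 and a fold above 2, as in the study's legend. CPM were scaled by TMM library sizes, except in the filter, which used library totals, and TPM used exon lengths. The fits were tested on simulated data. The members and lists were chosen with earlier results of these data known. Library values were printed for the 4 largest called differences per comparison among members with at least 5 CPM in the higher population, and the 2 members with the highest mean TPM per role. Of the other lists, at most the 3 largest such calls per comparison were named, besides sort markers, receptors, Irf1 and constitutive proteasome subunits. Ifnb1, Ifng, Cd3e, the library values of Irf7, Oasl1, Oas2, Mx1 and Mx2, and members given only with their call fell outside this rule and were named after their values were seen. Alternatives were DESeq2 1.42.0, limma 3.58.1, other scalings, filters, thresholds and sample sets, and each library left out. A gene of the signalling list is not reported here.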

Additional observations from a re-analysis of the deposited data

How the results depend on the processing

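Over 22 alternatives, each of the 109 differences called for a member kept its direction where it could be computed, and 82 kept their call throughout; over all these values 2208 stayed on the same side of the threshold and 186 lost the call. The comparison of Itga8+ MSCs with Itga8- BLCs depended most on the processing. Its 4 calls became 1 when only the 2 populations were fitted, 1 with the replicate block, 1 at FDR under 0.05 and 2 without the pair of libraries that leaned towards short genes, an alternative added after seeing the data, and rose to 6 with DESeq2 and 5 with library totals alone. The libraries that leaned towards long genes were left out only singly. The cause of these changes was not tested. Leaving out 1 library at a time gave 1 to 4 calls there, at 2 or fewer without Itga8+ replicate 1, any Itga8- library, Sca-1+ replicate 1 or any CD51+CD140a+ library. The same omission gave 10 to 19 calls for Itga8+ against Sca-1+ MSCs, with 10 without Sca-1+ replicate 3. It gave 21 to 27 for Itga8+ against CD51+CD140a+ MSCs, 12 to 18 for Itga8- BLCs against Sca-1+ MSCs, 25 to 32 for Itga8- BLCs against CD51+CD140a+ MSCs and 15 to 21 for Sca-1+ against CD51+CD140a+ MSCs. Where this leaves 2 libraries in a population, the spread is shared with the others.

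The replicate block gave 1, 13, 23, 14, 27 and 17 called members in the order Itga8+ against Itga8-, Sca-1+ and CD51+CD140a+, Itga8- against Sca-1+ and CD51+CD140a+, and Sca-1+ against CD51+CD140a+. Same-numbered libraries deviated together with correlations of -0.58 to 0.20, so the numbers were not taken to pair the samples. Itga8+ with CD51+CD140a+ and Itga8- with Sca-1+ cells each had 2 of 3 same-numbered pairs above 0.1. Some libraries with unlike numbers deviated together more strongly. The correlation was 0.59 for Itga8+ replicate 2 with Itga8- replicate 3 and 0.62 for Itga8+ replicate 3 with Itga8- replicate 2. Structure shared across the numbers was not modelled, and its source was not tested.

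Over all genes, the 712 calls between Itga8+ and Itga8- cells became 1203 with DESeq2, 276 with only these populations, 433 with the block, 464 at FDR under 0.05 and 433 without Itga8- replicate 3, and the 4055 between Itga8+ and Sca-1+ MSCs became 2642, 2386 and 2492 without Sca-1+ replicates 1, 2 and 3. With library totals alone as the scaling, the share of these calls that were higher in the first-named population moved from 57.9% to 41.8% for Itga8- against CD51+CD140a+, from 54.9% to 42.6% for Itga8- against Sca-1+ and from 43.5% to 61.3% for Itga8+ against Itga8- cells. The median difference over all genes moved from 0.084 to 0.34 in the last of these, where that of the members was 0.76, and from 0.091 to -0.24 for Itga8- against CD51+CD140a+ cells, where that of the members was -2.62. Genes at a few counts per library, such as Oas2, Oas3 and Mx1, are limited by depth.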
